A study of Mus musculus with 6 samples.

Results

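The 36 genes described here encode the aminoacyl-tRNA synthetases of the mouse liver that work in the cytosol (20 genes) or in the mitochondria (16 genes). They were picked out by gene name from the 56305 genes of a liver RNA-seq table. All 36 passed the filter on low values and were among the 15430 genes tested. The table compares livers of control mice (WT, n = 3) with livers of mice that carry floxed alleles of Vps15 and a Cre transgene under the albumin promoter (AlbCre+;Vps15 f/f, called Vps15LKO, n = 3). Vps15, listed as Pik3r4, is the regulatory subunit of the class III phosphatidylinositol 3-kinase, which acts in endosomal traffic and autophagy. Animals of both groups were males of 5 weeks on chow, and livers were taken at 6 h after lights on (ZT6). Albumin-driven Cre acts in hepatocytes and in cells that descend from albumin-expressing precursors, so that other liver cells keep an intact gene, and each library was made from whole liver tissue. Fewer cells of a type and less RNA per cell cannot be told apart in such bulk samples.

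An aminoacyl-tRNA synthetase joins one amino acid to the tRNAs that read its codons, at the cost of ATP, and thereby sets the meaning of the genetic code. Nuclear genes encode one set of enzymes for the cytosol and another for the mitochondrial matrix, where the charged tRNAs feed the translation of the respiratory chain proteins made from mitochondrial DNA. Gars and Kars each give rise to both a cytosolic and a mitochondrial enzyme, and glutaminyl-tRNA of the mitochondria is made by Ears2 together with an amidotransferase. In the cytosol several synthetases are held in the multisynthetase complex by scaffold proteins. Several cytosolic synthetase genes are known targets of ATF4, the transcription factor of the integrated stress response, which raises genes of amino acid supply when eIF2alpha is phosphorylated. The liver, which makes most plasma proteins, has a high demand for charged tRNAs.

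The promoters of the members were searched for the C/EBP-ATF response element, which ATF4 binds with a C/EBP partner (written TGATGNAAN, both strands). They were also searched for the E-box CACGTG, bound by MYC, USF and TFE family factors and by BMAL1 with CLOCK. The search used RefSeq sequence of the build GRCm38.p6 from 250 bases before to 50 bases after each start. The promoter set used held 27 of the 36 members. It had no entry for Cars, Hars, Lars, Nars, Rars, Vars, Wars, Hars2 and Pars2, and the reason was not looked into. Cars, Lars, Nars and Wars, which are described ATF4 targets, are thus missing from the shares. The response element letters occurred in 5 of 13 cytosolic members (38.5%), all of them described ATF4 targets (5 of 8), and in 0 of 14 mitochondrial members. They were in 8 of 22 integrated stress response genes (36.4%) and in 4.50% of 27025 genes with a promoter (3.95% of 32851 promoters). A window with a match is shown for each of these genes, not every match, because these 5 genes differed in direction and call, as given further on. Each is written 5′ to 3′ on the strand that carries the motif, which is in capitals, with 10 bases on each side.
Aars, chr8:111033840-111033868, minus strand: cagagcgctcTGATGAAAAgtgacccgct
Gars, chr6:55037960-55037988, minus strand: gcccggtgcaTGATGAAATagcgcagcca
Iars, chr13:49682126-49682154, minus strand: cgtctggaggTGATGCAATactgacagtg
Tars, chr15:11399656-11399684, plus strand: gctaaccagcTGATGCAACgggactcctg
Yars, chr4:129189896-129189924, plus strand: cgagctcagcTGATGCAACccgacgggac

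The E-box occurred in 4 of 13 cytosolic members (Aars, Farsb, Iars and Tars, 30.8%), 1 of 14 mitochondrial members (Ears2, 7.14%), 3 of 22 integrated stress response genes and 8.09% of all genes with a promoter (7.15% of promoters). Its windows are shown because 3 of these 5 genes also hold the response element. A match describes the letters and is not a binding site.
Aars, chr8:111033686-111033711, plus strand: tcaaccctgtCACGTGacactccatg
Farsb, chr1:78488921-78488946, minus strand: agacaggcatCACGTGagacagccca
Iars, chr13:49682051-49682076, plus strand: ccaatcgccaCACGTGttgtttgtag
Tars, chr15:11399624-11399649, minus strand: cgcctgtggcCACGTGgcgcacgcgc
Ears2, chr7:122067050-122067075, minus strand: cgaaggagccCACGTGtgtgtttcta

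Values are normalized counts, that is reads on a gene divided by the size factor of its library. Library totals ran from 16137093 to 18110223 reads on genes. The size factors were 0.742 to 0.801 in WT and 1.23 to 1.41 in Vps15LKO, so the reference level matters. Scaling every library to the same total of reads moved the middle value (median) of the log2 fold changes over all tested genes from −0.02 to 0.70, a shift of 0.72. The value under this total-read scaling is therefore given beside each member, and it is to be read against 0.70. Genes are named as called where limma gave an adjusted p under 0.05 (two-sided, Benjamini-Hochberg over the 15430 genes) and the fold was 1.2 or more. Calls were common, at 66.5% of tested genes, with 33.5% higher and 33.0% lower in Vps15LKO. Pik3r4 itself, counted over the whole gene and not over the floxed part alone, stood at 508, 573 and 459.7 normalized counts (WT) and 341, 362 and 355 (Vps15LKO) (log2 fold change −0.54, SE 0.11, adjusted p = 0.0021, and 0.19 with total-read scaling).

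The cell type markers moved strongly. Of 12 hepatocyte markers, 11 were called lower, with summed levels of 2896271 to 3292609.7 in WT and 837658 to 1269557 in Vps15LKO, whereas Alb missed the threshold (log2 fold change −1.48, adjusted p = 0.37). All 12, Alb included, were lower in every Vps15LKO liver than in every WT liver, where 36.8% of all tested genes were. Markers of cholangiocytes (7 of 7 tested higher, sums 1273 to 1429 in WT and 12286 to 23733 in Vps15LKO), macrophages (9 of 10 higher, 7164 to 8621 in WT and 24357 to 27779 in Vps15LKO), stellate cells and fibroblasts (10 of 10 higher, 7102 to 7541 in WT and 29890.1 to 35353 in Vps15LKO), lymphocytes (6 of 8 tested higher, 156 to 193 in WT and 423 to 526 in Vps15LKO) and dividing cells (10 of 10 higher, 688 to 1019 in WT and 4309 to 4649 in Vps15LKO) rose. Of 10 endothelial markers 4 were higher and 4 lower, and of 5 erythroid markers tested 0 were higher and 1 lower. With total-read scaling 7 endothelial markers were higher and 0 lower and 4 erythroid markers higher and 1 lower, while 11 of 12 hepatocyte markers were lower and each of the other lists had 0 lower. No listed marker was at 0 reads in all 6 libraries. These shifts run along with every genotype difference given here, and their part in the synthetase values was not tested.

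Most synthetase genes were either lower in Vps15LKO livers or without a call, and the 3 that were higher were listed as cytosolic, although 1 of them, Gars, also serves the mitochondria. The difference between the compartments was not tested. Among the 20 cytosolic genes 3 were called higher (15%, against 33.5% of all tested genes), 8 lower (40%, against 33.0%) and 9 were not called. Among the 16 mitochondrial genes 0 were higher, 9 were lower (56.2%) and 7 were not called. The median log2 fold change was −0.18 for the cytosolic and −0.68 for the mitochondrial genes, beside −0.02 for all tested genes. With total-read scaling the medians were 0.55 and 0.04 beside 0.70, both again under the median of all genes. Under that scaling 15 cytosolic genes were called higher and 2 lower, and 6 mitochondrial genes higher and 1 lower (66.8% and 11.1% of all tested genes). Upper-quartile scaling gave 3 cytosolic genes higher and 10 lower and 0 and 12 mitochondrial genes (30.4% and 37.8% of all tested genes), and quantile normalization 6 and 6 cytosolic and 0 and 11 mitochondrial genes (30.4% and 37.7%). Added over the 20 genes, the cytosolic normalized counts went from 23976 ± 950.2 (SD, n = 3) in WT to 20309 ± 594 (n = 3) in Vps15LKO, a ratio of 0.847. The mitochondrial sum went from 9896 ± 1632 to 5913 ± 194, a ratio of 0.597. As CPM (reads scaled to the same library total), the same sums were 1059 ± 56.6 and 1485 ± 74.0 for the cytosolic genes (ratio 1.40) and 439 ± 86.8 and 432 ± 26.8 for the mitochondrial genes (ratio 0.986). In single livers the mitochondrial CPM sums were 402, 376 and 538 in WT and 447, 402 and 449 in Vps15LKO, so the groups overlapped and WT replicate 3, with 5002 of its 11697 normalized counts from Lars2, stood highest. The mitochondrial CPM ratio turned to 1.11 without WT replicate 3, to 1.02 without Vps15LKO replicate 2 and to 1.11 without Lars2 in all livers, settings chosen after seeing the data. The ratio of normalized counts was 0.657, 0.599 and 0.671 in the same settings. The plot of values by liver shows every member.

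**Figure D1:**
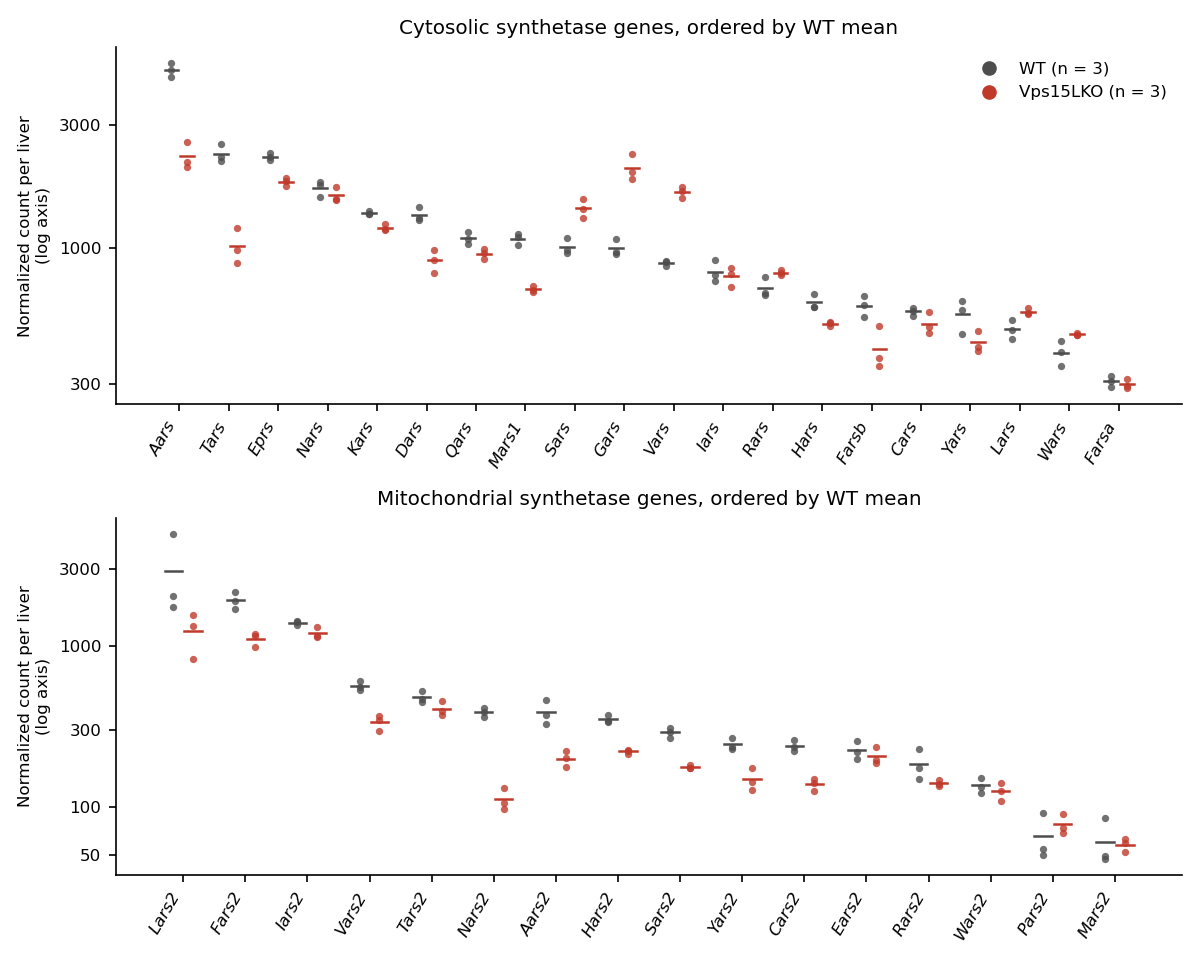
Normalized counts of the 20 cytosolic (top) and 16 mitochondrial (bottom) synthetase genes in each liver, on a log axis, ordered by WT mean. Points are single livers (grey WT, red Vps15LKO, n = 3 each) and bars are group means; Gars, Vars and Sars stand apart upwards, Tars, Aars and Nars2 downwards, and 1 WT liver is far above the others for Lars2.

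The glycine, valine and serine enzymes were the 3 cytosolic genes that rose. Gars (GRCm38 chromosome 6, 55038007 to 55079500, plus strand), whose enzyme charges glycine tRNAs in the cytosol and the mitochondria, stood at 953, 967 and 1084 normalized counts (WT) and 1960.3, 1850.02 and 2307 (Vps15LKO). Every Vps15LKO liver was above every WT liver, and the mean rose from 1001.3 ± 71.7 to 2039 ± 239 (SD, n = 3), a fitted change of 2.03-fold (log2 fold change 1.02, SE 0.11, adjusted p = 6.3e-05; 1.75 with total-read scaling). Vars (GRCm38 chromosome 17, 35000987 to 35016322, plus strand), the valine enzyme of the cytosol, was measured at 855, 896 and 882 normalized counts (WT) and 1656, 1565 and 1724 (Vps15LKO). Its groups did not overlap and the change was 1.88-fold (log2 fold change 0.91, SE 0.08, adjusted p = 2.7e-05; 1.63 with total-read scaling). Sars (GRCm38 chromosome 3, 108424865 to 108445209, minus strand), which charges serine tRNAs and also the selenocysteine tRNA, moved less, at 1094, 958 and 980.0 normalized counts (WT) and 1413, 1312 and 1544 (Vps15LKO). Its lowest Vps15LKO value was above its highest WT value (1.41-fold, log2 fold change 0.49, SE 0.10, adjusted p = 0.0021; 1.22 with total-read scaling). Leaving out 1 liver at a time gave log2 fold changes of 0.93 to 1.09 for Gars, 0.87 to 0.94 for Vars and 0.43 to 0.55 for Sars.

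At the other end stood the threonine and alanine enzymes. Tars (GRCm38 chromosome 15, 11382301 to 11399665, minus strand), the cytosolic threonine enzyme, was counted at 2514, 2167 and 2239 normalized counts (WT) and 982, 1192 and 879 (Vps15LKO). All Vps15LKO livers were below all WT livers, with a fitted change of 2.28-fold (log2 fold change −1.19, SE 0.13, adjusted p = 6.0e-05; −0.46 with total-read scaling). Aars (GRCm38 chromosome 8, 111033144 to 111057664, plus strand), the cytosolic alanine enzyme, had 5175, 4580.4 and 4887 normalized counts (WT) and 2149.7, 2580.1 and 2048 (Vps15LKO). It was 2.17-fold lower without overlap (log2 fold change −1.12, SE 0.12, adjusted p = 5.2e-05; −0.39 with total-read scaling), and 1326 bases (14.3%) of its annotated exon sequence lie also in Exosc6 on the same strand. Tars and Aars were called lower under every alternative run, with ranges of −1.31 to −1.09 and −1.22 to −1.05 when 1 liver was left out.

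The other 6 cytosolic genes called lower changed sign with the reference level. Mars1, the methionine enzyme, listed as Mars in the annotation, had 1131, 1104 and 1027 in WT against 688, 713 and 676 in Vps15LKO (log2 fold change −0.65, SE 0.08, adjusted p = 1.8e-04), but 0.08 with total-read scaling. Dars, which charges aspartate tRNAs, stood at 1445, 1309 and 1282 in WT against 903, 985 and 803 in Vps15LKO (log2 fold change −0.59, SE 0.10, adjusted p = 0.0010, total-read 0.14). Farsb, the beta subunit of the cytosolic phenylalanine enzyme, had 654, 541 and 605 in WT against 378, 498 and 351 in Vps15LKO (log2 fold change −0.56, SE 0.14, adjusted p = 0.0079, total-read 0.16). Its partner subunit Farsa had 308, 289.8 and 321 in WT against 288, 294 and 313 in Vps15LKO and no call (log2 fold change −0.04, SE 0.10, adjusted p = 0.76, total-read 0.69). For Mars1, Dars and Farsb the groups did not overlap, and for Farsa they did. Eprs, a single protein that charges both glutamate and proline tRNAs, had 2188, 2258 and 2323 in WT against 1809.8, 1865 and 1729.99 in Vps15LKO (log2 fold change −0.32, SE 0.08, adjusted p = 0.0081, total-read 0.40, quantile normalization 0.10). Hars, the histidine enzyme, stood at 591, 595 and 665 in WT against 514, 502 and 518 in Vps15LKO (log2 fold change −0.27, SE 0.09, adjusted p = 0.026, total-read 0.46). Its call was lost without WT replicate 3 (adjusted p = 0.072), Vps15LKO replicate 1 (0.077), Vps15LKO replicate 2 (0.070) or Vps15LKO replicate 3 (0.053). Hars also lost its call with TMM scaling (adjusted p = 0.052), quantile normalization (0.098), edgeR (0.051) and limma voom (0.054). Yars, the tyrosine enzyme, had 623, 466 and 576 in WT against 402, 479.7 and 416 in Vps15LKO (log2 fold change −0.35, SE 0.13, adjusted p = 0.040, total-read 0.37) and was the one called cytosolic gene whose groups overlapped. Its call was lost without WT replicate 1 (adjusted p = 0.13) or 3 (0.091), without Vps15LKO replicate 1 (0.13) or 3 (0.10), and with the replicate number as a block (0.066). The Yars call was lost as well without a filter (adjusted p = 0.053), with TMM scaling (0.058), limma without trend (0.068) and limma voom (0.051).

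For 9 cytosolic genes no difference was called, Farsa among them. Qars, the glutamine enzyme (1085, 1042 and 1159 in WT against 906, 959 and 991 in Vps15LKO; log2 fold change −0.20, SE 0.09, adjusted p = 0.069, total-read 0.52), and Kars, which charges lysine tRNAs in both compartments (1359, 1390.2 and 1349 in WT against 1181, 1242 and 1171 in Vps15LKO; log2 fold change −0.19, SE 0.08, adjusted p = 0.062, total-read 0.54), had lower values in every Vps15LKO liver but missed the threshold. With upper-quartile scaling Qars (−0.30, adjusted p = 0.013) and Kars (−0.29, adjusted p = 0.0098) were called lower, whereas quantile normalization put them at 0.02 and 0.11 without a call. Cars, for cysteine, overlapped between groups (573, 547 and 589 in WT against 494, 567 and 469 in Vps15LKO; log2 fold change −0.16, SE 0.10, adjusted p = 0.18, total-read 0.56). The same was true of Nars, for asparagine (1749, 1576 and 1798 in WT against 1549, 1719 and 1540.4 in Vps15LKO; log2 fold change −0.09, SE 0.09, adjusted p = 0.42, total-read 0.63). With quantile normalization Nars was called higher (0.28, adjusted p = 0.022). Iars, for isoleucine, also overlapped (786, 747 and 900.5 in WT against 793, 835 and 706 in Vps15LKO; log2 fold change −0.06, SE 0.11, adjusted p = 0.65, total-read 0.67). Rars, Lars and Wars, for arginine, leucine and tryptophan, had log2 fold changes of 0.20, 0.23 and 0.24 (adjusted p = 0.090, 0.060 and 0.074, total-read 0.93, 0.96 and 0.96), with every Vps15LKO liver above every WT liver for each. These 3 genes were called higher once WT replicate 3 was left out, at 0.27, 0.29 and 0.31 (adjusted p = 0.027, 0.028 and 0.028). Lars and Wars were also called higher with TMM scaling (0.27 and 0.28, adjusted p = 0.033 and 0.041), edgeR (adjusted p = 0.029 and 0.037) and limma voom (adjusted p = 0.029 and 0.034), and Rars and Lars with quantile normalization (0.35 and 0.29, adjusted p = 0.015 and 0.028). Counted by overlap alone, 6 cytosolic genes were higher and 9 lower without overlap, where 36.4% and 36.8% of all tested genes were.

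**Figure D2:**
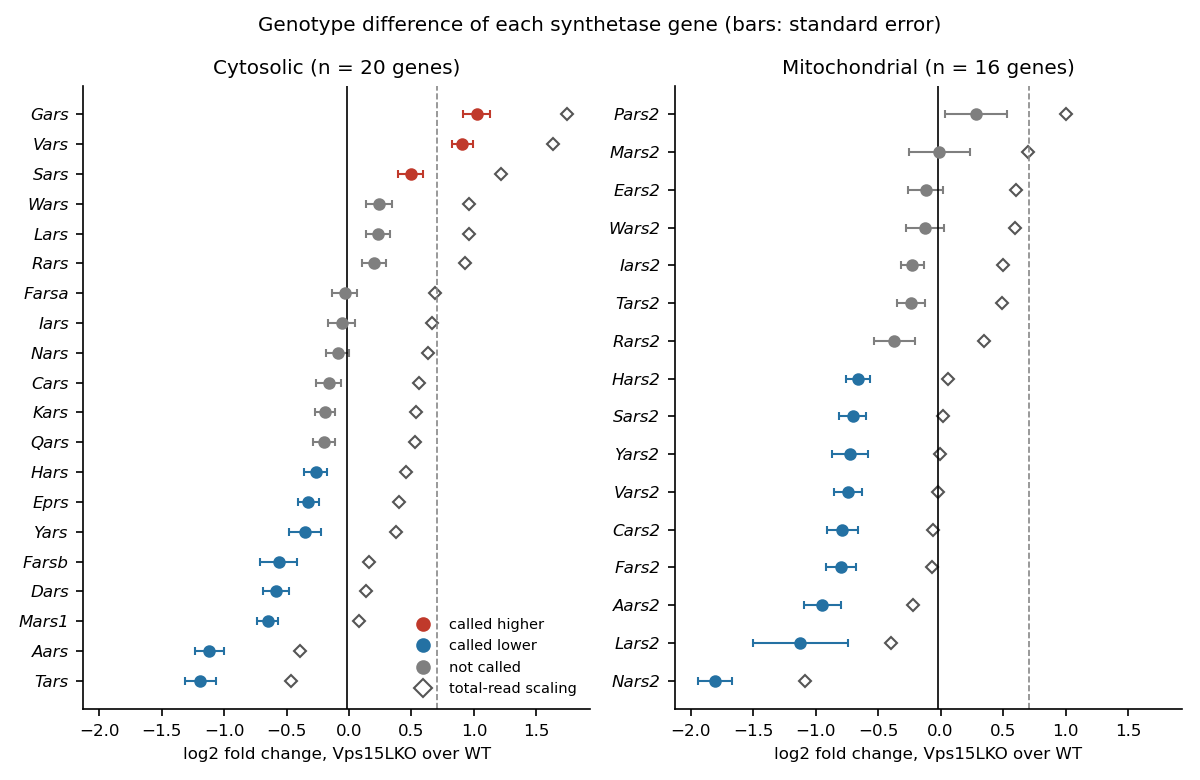
Log2 fold change (Vps15LKO over WT) of each synthetase gene with its standard error, under the deposited scaling and under total-read scaling, with the median of all tested genes drawn for each. Gars and Vars are above both medians and Tars, Aars and Nars2 below both, whereas 20 members move from below to above 0 with the scaling.

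The members were also grouped by what their enzymes share. The 8 enzymes of the multisynthetase complex had 0 called higher and 3 lower (Mars1, Dars and Eprs), beside 33.5% and 33.0% of all tested genes, with a median log2 fold change of −0.20, but 6 higher and 0 lower (median 0.53) with total-read scaling. The 12 cytosolic enzymes outside the complex included all 3 that rose and 5 that were lower (median −0.13), and with total-read scaling 9 were higher and 2 lower (median 0.60). Of the complex scaffolds, Aimp2 was 215, 251 and 241 in WT against 276, 290.1 and 291 in Vps15LKO (log2 fold change 0.28, SE 0.11, adjusted p = 0.043, total-read 1.004). Aimp1, which is also released as a cytokine, had 382, 254 and 256 in WT against 336, 304 and 329.6 in Vps15LKO (log2 fold change 0.15, SE 0.16, adjusted p = 0.45, total-read 0.87). Eef1e1 had 142, 99.9 and 127 in WT against 147, 155 and 189 in Vps15LKO (log2 fold change 0.42, SE 0.17, adjusted p = 0.055, total-read 1.14). Thus 1 of 3 scaffolds was called, and 3 with total-read scaling. By the fold of the catalytic domain, the 19 class I enzymes of both compartments had 1 gene higher and 7 lower (median −0.20), and the 17 class II enzymes 2 higher and 10 lower (median −0.56). Eprs, one of the 7, is counted in class I alone, although its proline activity is of class II, as is Pars2. Among the mitochondrial genes alone, 4 of 9 class I and 5 of 7 class II enzymes were lower, against 0 and 1 with total-read scaling. With total-read scaling the counts turned to 13 higher and 0 lower for class I and 8 higher and 3 lower for class II, where 66.8% and 11.1% of all tested genes were called, and the class medians were 0.52 and 0.16, beside 0.70 for all genes. None of these differences between groups of enzymes was tested.

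In the mitochondrial set the asparagine enzyme fell furthest. Nars2 (GRCm38 chromosome 7, 96951505 to 97064758, plus strand) had 412, 365 and 391 normalized counts (WT) and 106, 130.5 and 97.6 (Vps15LKO). The highest Vps15LKO value was far below the lowest WT value, and the mean fell from 389 ± 23.9 to 111 ± 17.1 (SD, n = 3), a fitted change of 3.49-fold (log2 fold change −1.80, SE 0.14, adjusted p = 1.0e-05; −1.08 with total-read scaling). It was called lower under all 22 alternatives, at −1.92 to −1.72 with 1 liver left out. Aars2, for alanine, had 461, 376 and 326 in WT against 176, 222 and 201 in Vps15LKO (log2 fold change −0.95, SE 0.15, adjusted p = 5.9e-04, total-read −0.22). Fars2, for phenylalanine, is a single-subunit enzyme unlike its cytosolic counterpart and had 2186, 1909 and 1701 in WT against 1162, 1184 and 983 in Vps15LKO (log2 fold change −0.80, SE 0.12, adjusted p = 4.4e-04, total-read −0.07). Cars2, for cysteine, had 237, 224 and 260.2 in WT against 125, 142 and 149.9 in Vps15LKO (log2 fold change −0.79, SE 0.12, adjusted p = 5.5e-04, total-read −0.06). In none of Nars2, Aars2, Fars2 and Cars2 did the groups overlap. Parts of the exon sequence of Nars2 (4.1%, C230038L03Rik), Fars2 (8.7%, Nrn1), Cars2 (5.8%, Naxd), Vars2 (8.5%, Gm20483) and, in the cytosol, Farsb (9.5%, Sgpp2) lie opposite another gene, and the share of their reads that comes from it was not tested.

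Vars2, for valine, fell as its cytosolic counterpart rose, with 605, 536 and 557 in WT against 349, 369.5 and 298 in Vps15LKO (log2 fold change −0.74, SE 0.11, adjusted p = 4.1e-04, total-read −0.02). Yars2, for tyrosine, had 269, 229.8 and 236 in WT against 128, 176 and 142 in Vps15LKO (log2 fold change −0.72, SE 0.15, adjusted p = 0.0022, total-read −0.002). Sars2 and Hars2 turned sign with the reference level. Sars2, for serine, had 312, 292 and 268 in WT against 175, 183 and 175 in Vps15LKO (log2 fold change −0.70, SE 0.11, adjusted p = 4.5e-04, total-read 0.02). Hars2, for histidine, had 371, 339 and 344 in WT against 225, 226 and 214 in Vps15LKO (log2 fold change −0.66, SE 0.10, adjusted p = 3.8e-04, total-read 0.06). Hars and Hars2 lie head to head, with 195 bases of exon sequence in common on opposite strands. For Vars2, Yars2, Sars2 and Hars2 every Vps15LKO liver was under every WT liver.

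Lars2, the mitochondrial leucine enzyme (GRCm38 chromosome 9, 123366927 to 123462666, plus strand), was counted at 2049, 1756 and 5002 normalized counts (WT) and 1557, 835 and 1342 (Vps15LKO). WT replicate 3 stood far above the other two, while the groups did not overlap (log2 fold change −1.12, SE 0.38, adjusted p = 0.029, total-read −0.40). Without 1 liver the log2 fold change ran from −1.41 to −0.66, with the smallest change, −0.66, where WT replicate 3 was left out (adjusted p = 0.043), and the call was lost without Vps15LKO replicate 2 (log2 fold change −0.86, adjusted p = 0.084). It was lost too with quantile normalization (−0.75, adjusted p = 0.12) and with limma without trend (adjusted p = 0.057). Its transcript shares a stretch of 72 bases, at 98.6% identity, with Gm15564, a gene looked up after the values were seen. Gm15564 had 288, 246 and 578 normalized counts in WT and 211, 101.3 and 185 in Vps15LKO (log2 fold change −1.12, SE 0.36, adjusted p = 0.022). The ratio of Lars2 to Gm15564 was 7.12, 7.14 and 8.65 in WT and 7.39, 8.24 and 7.24 in Vps15LKO. Both genes were thus highest in the same WT liver, and the share of reads they have in common was not tested.

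The remaining 7 mitochondrial genes were not called. Rars2, for arginine (228, 149.9 and 175 in WT against 139, 135 and 146 in Vps15LKO; log2 fold change −0.37, SE 0.16, adjusted p = 0.074, total-read 0.35), was lower in every Vps15LKO liver and was called without WT replicate 2 (log2 fold change −0.51, adjusted p = 0.025), with upper-quartile scaling (−0.47, adjusted p = 0.032) and with quantile normalization (−0.67, adjusted p = 0.0042). Iars2, for isoleucine (1444, 1414 and 1353 in WT against 1134, 1314 and 1162 in Vps15LKO; log2 fold change −0.22, SE 0.09, adjusted p = 0.056, total-read 0.50), likewise did not overlap, and 22.9% of its exon sequence lies opposite Rab3gap2. Tars2, for threonine, overlapped (467, 449.7 and 527 in WT against 376, 455 and 396 in Vps15LKO; log2 fold change −0.24, SE 0.11, adjusted p = 0.090, total-read 0.49). Without Vps15LKO replicate 2 both Iars2 (−0.29, adjusted p = 0.027) and Tars2 (−0.31, adjusted p = 0.047) were called lower, as they were with upper-quartile scaling (−0.32 and −0.33, adjusted p = 0.00998 and 0.023), while quantile normalization put Iars2 at 0.07 without a call. Wars2, for tryptophan (134, 152 and 123 in WT against 126, 140.2 and 109 in Vps15LKO; log2 fold change −0.13, SE 0.15, adjusted p = 0.48, total-read 0.60), and Ears2, for glutamate (200.2, 219.8 and 256 in WT against 197, 237 and 188 in Vps15LKO; log2 fold change −0.12, SE 0.14, adjusted p = 0.47, total-read 0.60), overlapped. Few reads lay behind Mars2, for methionine (47.7, 49.96 and 84.9 in WT against 52.7, 63.2 and 59.4 in Vps15LKO; log2 fold change −0.01, SE 0.24, adjusted p = 0.97, total-read 0.70), and Pars2, for proline (50.4, 55.0 and 91.7 in WT against 90.9, 74.5 and 68.6 in Vps15LKO; log2 fold change 0.29, SE 0.25, adjusted p = 0.33, total-read 1.002, quantile normalization −0.26), both with WT replicate 3 above the other WT livers. Without that liver Pars2 was called higher (0.55, adjusted p = 0.034). With quantile normalization Wars2 (−0.50, adjusted p = 0.016) and Mars2 (−0.58, adjusted p = 0.042) were called lower. By overlap alone 0 mitochondrial genes were higher and 11 lower, beside 36.4% and 36.8% of all tested genes.

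The amidotransferase that completes glutaminyl-tRNA in mitochondria was called lower in 2 of its 3 subunits. Gatb had 631, 575 and 532 in WT against 244, 319 and 210.1 in Vps15LKO (log2 fold change −1.18, SE 0.16, adjusted p = 2.0e-04, total-read −0.46). Gatc had 550.3, 465 and 607 in WT against 332, 329.8 and 313 in Vps15LKO (log2 fold change −0.72, SE 0.12, adjusted p = 6.0e-04, total-read 0.0013). Qrsl1, the catalytic subunit, had few reads and overlapped (47.7, 63.7 and 101.1 in WT against 47.4, 68.9 and 67.9 in Vps15LKO; log2 fold change −0.16, SE 0.29, adjusted p = 0.65, total-read 0.56). Of 8 further synthetase and editing genes, all 8 were called lower, beside 33.0% of all tested genes. Their median was −0.74 (−0.02 with total-read scaling, where 1 was lower and 1 higher). They include Tarsl2, a cytosolic relative of Tars, at 281, 341 and 247 in WT against 166, 161 and 162 in Vps15LKO (log2 fold change −0.81, SE 0.14, adjusted p = 7.7e-04, total-read −0.09), and Sepsecs, which turns the phosphoserine that Pstk makes on the selenocysteine tRNA into selenocysteine (log2 fold change −1.21, SE 0.12, adjusted p = 4.0e-05, total-read −0.49).

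For 16 amino acids with a separate gene in each compartment, the log2 ratio of the cytosolic to the mitochondrial gene was taken within each liver, which frees the comparison from the library scaling. The ratio was higher in all Vps15LKO livers than in all WT livers for 9 amino acids, lower for 2 and overlapping for 5, with a median difference of 0.38. With 3 against 3 livers the smallest exact permutation p (two-sided) is 0.1, which these 11 pairs reached, with an adjusted p of 0.15 over the 16 pairs, so none can pass 0.05. The largest shift was for asparagine, where Nars over Nars2 was 2.08, 2.11 and 2.20 in WT and 3.85, 3.71 and 3.97 in Vps15LKO, a difference of 1.71 ± 0.08 (SE). Valine (Vars over Vars2) had 0.50, 0.74 and 0.66 in WT and 2.24, 2.08 and 2.53 in Vps15LKO, a difference of 1.65 ± 0.15 (SE). Leucine, with the variable Lars2, differed by 1.35 ± 0.48 (SE), and serine (Sars over Sars2) by 1.196 ± 0.10 (SE). Phenylalanine (Farsa over Fars2) at 0.76 ± 0.17 (SE), cysteine at 0.62 ± 0.12 (SE), arginine at 0.57 ± 0.19 (SE), histidine at 0.39 ± 0.09 (SE) and tyrosine at 0.37 ± 0.10 (SE) completed the 9. The cytosolic phenylalanine enzyme has another subunit, and Farsb over Fars2, a ratio added after the data were seen, was −1.74, −1.82 and −1.49 in WT and −1.62, −1.25 and −1.48 in Vps15LKO, a difference of 0.23 ± 0.15 (SE) with overlapping groups. With Farsb in place of Farsa the count without overlap is therefore 8 higher, and 6 pairs overlap. Threonine went the other way, at 2.43, 2.27 and 2.08 in WT and 1.38, 1.39 and 1.15 in Vps15LKO, −0.95 ± 0.13 (SE), as did proline (Eprs over Pars2) at −0.61 ± 0.27 (SE). Methionine (−0.64 ± 0.31 (SE)), glutamate, also with Eprs (−0.20 ± 0.11 (SE)), alanine (−0.17 ± 0.15 (SE)), isoleucine (0.17 ± 0.12 (SE)) and tryptophan (0.36 ± 0.21 (SE)) overlapped. For comparison, 73.2% of single tested genes did not overlap between the groups, and the same share for ratios of other gene pairs was not computed.

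**Figure D3:**
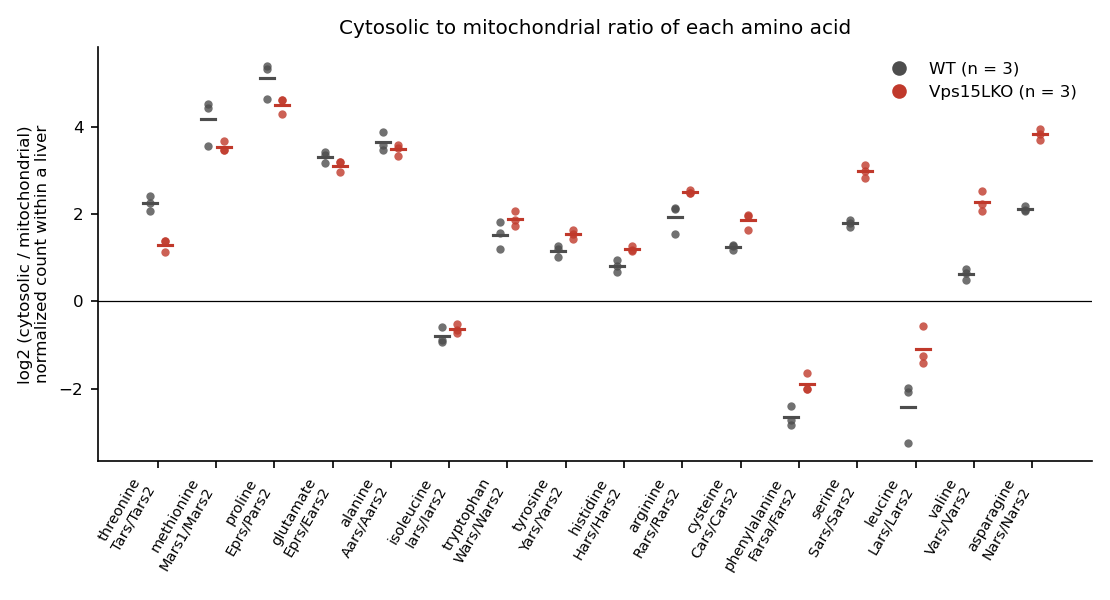
Log2 ratio of the cytosolic to the mitochondrial synthetase gene of each amino acid in each liver (grey WT, red Vps15LKO, n = 3 each; bars are means). Asparagine, valine and serine show the widest separation upwards among pairs with little spread, and threonine lies lower in Vps15LKO livers.

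Of the cytosolic genes, 12 have been described as targets of ATF4. In this group 2 were called higher (Gars and Sars), 5 lower (Tars, Aars, Mars1, Yars and Eprs) and 5 neither, beside 33.5% higher and 33.0% lower among all tested genes, with a median of −0.13. The 8 other cytosolic genes had 1 higher, 3 lower and a median of −0.20, and with total-read scaling the medians were 0.60 and 0.53 and the counts turned to 9 higher and 2 lower and to 6 higher and 0 lower. Among the 5 genes that hold the response element letters printed above, Gars was called higher (log2 fold change 1.02), Tars, Aars and Yars lower (−1.19, −1.12 and −0.35, with Yars at 0.37 under total-read scaling) and Iars neither (−0.06, total-read 0.67). Of the E-box genes, Aars, Farsb and Tars were called lower, Farsb at 0.16 under total-read scaling, and Iars and Ears2 were not called.

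Genes of the integrated stress response were mostly higher. Of 25 such genes 17 were called higher and 4 lower, beside 33.5% and 33.0% of all tested genes. Their median was 1.22 (with total-read scaling 21 higher, 2 lower and 1.94). Their summed normalized counts were lower in Vps15LKO, with a ratio to WT of 0.860, but 1.42 as CPM. Atf4 mRNA itself was 2547, 1999.8 and 2234 in WT against 1868, 2027 and 1951 in Vps15LKO (log2 fold change −0.21, SE 0.11, adjusted p = 0.12, total-read 0.52). ATF4 is controlled mainly through its translation, which was not measured. Ddit3, encoding CHOP, was 145, 119.9 and 111 in WT against 304, 284 and 282 in Vps15LKO (log2 fold change 1.22, SE 0.13, adjusted p = 6.6e-05, total-read 1.94). It lies opposite 68 bases of the Mars1 exons. Asns, which makes asparagine, was 78.2, 58.7 and 166 in WT against 212, 222 and 248 in Vps15LKO (log2 fold change 1.30, SE 0.33, adjusted p = 0.0072, total-read 2.02), beside Nars without a call. Slc7a11, the cystine carrier, had 0 reads in every WT liver and was at least 473-fold higher in Vps15LKO, against a floor of 3 reads per library. Cth, which makes cysteine from cystathionine, fell (log2 fold change −1.91, SE 0.15, adjusted p = 1.3e-05, total-read −1.18). Among the eIF2alpha kinases, Eif2ak3 (PERK) rose (log2 fold change 0.66, SE 0.09, adjusted p = 2.2e-04, total-read 1.39) and Eif2ak1 fell (log2 fold change −0.59, SE 0.09, adjusted p = 4.8e-04), though at 0.13 with total-read scaling, and the other 2 of 4 were not called. Of 15 amino acid transporters, which share Slc7a11, Slc7a5 and Slc3a2 with the stress list, 9 were higher and 4 lower (median 1.59, with total-read scaling 11 higher, 3 lower and 2.31). The summed counts of these transporters nevertheless fell, with a Vps15LKO to WT ratio of 0.314 (0.520 as CPM). Slc38a4, a transporter of the hepatocyte, fell most of them (log2 fold change −2.13, SE 0.21, adjusted p = 3.9e-05, total-read −1.40).

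Calls among the genes that make and handle tRNA turned with the reference level, as those over all tested genes did. Among all tested genes 33.5% were higher and 33.0% lower, and with total-read scaling 66.8% and 11.1%. Of 21 tested genes of tRNA processing and export (Rpp25 was not tested) 4 were higher and 7 lower, with a median of −0.09 (with total-read scaling 14 higher, 1 lower and 0.63). Xpot, the exporter of tRNA from the nucleus, was 1494, 1539 and 1279 in WT against 843, 987 and 726 in Vps15LKO (log2 fold change −0.76, SE 0.13, adjusted p = 8.7e-04, total-read −0.03). Rpp38, a subunit of RNase P, rose (log2 fold change 0.997, SE 0.22, adjusted p = 0.0035, total-read 1.71), and Elac1, the short form of RNase Z, fell (log2 fold change −1.21, SE 0.17, adjusted p = 2.7e-04, total-read −0.49). Of 25 tRNA modification genes 3 were higher and 6 lower (median −0.09, with total-read scaling 18 higher, 0 lower and 0.63), from Ctu2, which thiolates the wobble base, at 0.82 (adjusted p = 9.7e-04, total-read 1.54) to Trmt10c, a mitochondrial methyltransferase, at −0.73 (adjusted p = 6.0e-04, total-read −0.01). Of 21 genes of RNA polymerase III and its factors, which transcribe tRNA genes, 1 was higher and 8 lower (median −0.21, with total-read scaling 15 higher, 1 lower and 0.51). Its subunit Polr3d rose (log2 fold change 0.68, adjusted p = 0.0026, total-read 1.40) and Polr3g fell (−1.63, adjusted p = 2.7e-04, total-read −0.91).

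Of 15 factors of mitochondrial translation 0 were called higher and 10 lower, with a median of −0.59 (total-read 0.13, where 6 were higher and 3 lower). The shares of all tested genes were 33.5% higher and 33.0% lower, and 66.8% and 11.1% with total-read scaling. Taco1, a translational activator of a cytochrome oxidase subunit, fell most (log2 fold change −1.26, SE 0.15, adjusted p = 1.3e-04, total-read −0.54). Of 7 cytosolic elongation genes 3 were higher and 1 lower (median −0.13, with total-read scaling 7 higher, 0 lower and 0.60). They ran from Eif5a2, an isoform of the elongation factor eIF5A, at 2.71 (adjusted p = 1.4e-04, total-read 3.36) to Eef1d, a subunit of the exchange factor for eEF1A, at −0.27 (adjusted p = 0.036, total-read 0.46). The plot of related lists sets these groups side by side.

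**Figure D4:**
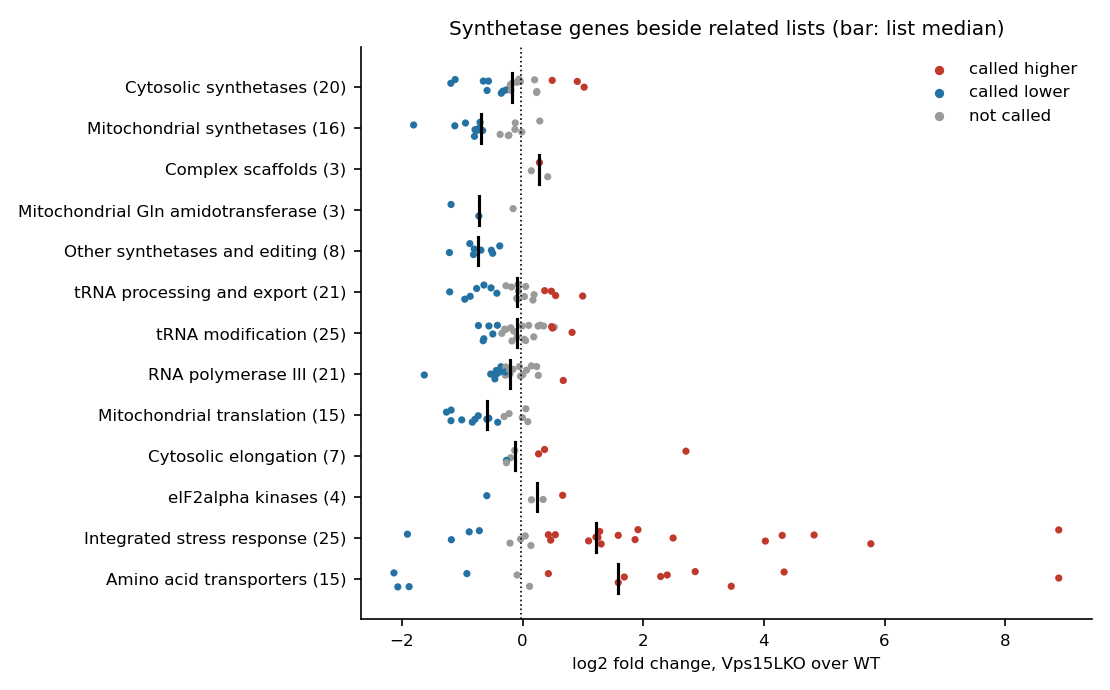
Log2 fold change (Vps15LKO over WT) of each tested gene of the synthetase and related lists, numbers of genes in parentheses. Colour gives the call, black bars the list medians and the dotted line the median of all tested genes, −0.02. Slc7a11, in both bottom lists, is drawn at its lower bound of 8.89. The stress and transporter lists reach far to the right, while both synthetase lists stay within about −1.80 and 1.02.

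Set per kilobase of annotated exon sequence, the level of the cytosolic genes in WT livers ran from 67.4 normalized counts per kb for Farsa to 526 for Aars, followed by Nars at 392.2 and Tars at 391. In Vps15LKO livers the highest level per kb was that of Gars, which went from 321 to 654, ahead of Nars (392.2 to 368) and Vars (156 to 294), while Aars went from 526 to 243 and Tars from 391 to 172. The mitochondrial genes were lower per kb in general, with Fars2 (336 to 193), Lars2 (265 to 112) and Iars2 (158 to 135) at the top and Mars2 (5.39 to 5.17) at the bottom. The length counts all annotated exons of a gene together and not the transcripts present in these livers. These orders thus depend also on the annotation. Neighbours in them were not tested against each other.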

How the data were processed

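Liver RNA of 3 WT and 3 Vps15LKO mice was measured by poly(A)-selected, strand-marked RNA-seq, 1 library per liver. The authors filtered reads with SOAPnuke, aligned them with HISAT2 to GRCm38, counted them with featureCounts and deposited normalized counts (a signal per gene, divided by DESeq2 size factors). Versions, strand setting and treatment of multi-mapped reads are not given in the sources used here. The authors' own comparison used DESeq2, edgeR and limma voom. Every deposited value gave whole reads (100% within 0.01) after recovery of the size factors, and totals were 16137093 to 18110223 reads, with a read worth 0.707 to 0.810 normalized counts (Vps15LKO) or 1.25 to 1.35 (WT).

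Genes with 20 or more normalized counts in 3 livers or more of the 6 were tested (15430 of 56305) with limma 3.58.1 in R 4.3.3 on log2(normalized count + 1) with a mean-variance trend, without covariates and two-sided, with Benjamini-Hochberg adjustment; a fold change is on that scale. The recovered reads were also tested with edgeR 4.0.16 and DESeq2 1.42.0, as alternatives, beside other scalings, filters, pseudocounts and thresholds, each liver left out and the replicate number as a block. The procedure was tested on simulated data. Ratios within a liver were compared by an exact permutation test. Gene identities and positions came from GENCODE M21 (55227 of 56305 identifiers matched), and promoters from RefSeq. All 36 members are named; in full are given the 5 largest rises and falls among called genes of each compartment, every member whose direction differs between scalings, and scaffold, amidotransferase and single related genes with the extremes of each list. The members and lists were chosen with earlier results of these data known. Replicate numbers tie to no litter in the labels, and p-values measure the spread between these livers. A few items are not reported here.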

Additional observations from a re-analysis of the deposited data

How the results depend on the processing

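Aars, Gars, Nars2, Tars and Vars kept direction and call under all 22 alternatives per gene, and Sars under all but a fold of at least 1.5. Over the 36 genes and 22 alternatives, 36 values changed sign, with or without a change of call. Of the values that kept their sign, 695 kept their side of the threshold, 34 lost the call and 27 gained one. The 3 cytosolic genes called higher became 5 with TMM scaling, edgeR or limma voom, 6 with quantile normalization and 15 with total-read scaling; without 1 liver they numbered 3 to 6, with 6 where WT replicate 3 was left out. The 8 called lower became 2 with total-read scaling and 4 at a fold of at least 1.5. The 0 mitochondrial genes called higher became 6 with total-read scaling and 0 to 1 without 1 liver (1 without WT replicate 3, Pars2), and the 9 called lower became 1 with total-read scaling. The median of all genes moved by 0.72 with total-read scaling, 0.21 without a filter, 0.04 with TMM, −0.08 with quantile normalization and −0.10 with upper-quartile scaling; of all genes, 66.8% were then higher and 11.1% lower with total-read scaling, and 30.4% and 37.8% with upper-quartile scaling. Calls over all genes numbered 7830 to 12142 (edgeR 10205, DESeq2 10028, limma voom 10185).

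Log2 fold changes that changed sign with total-read scaling were Cars 0.56, Dars 0.14, Eprs 0.40, Farsa 0.69, Farsb 0.16, Hars 0.46, Iars 0.67, Kars 0.54, Mars1 0.076, Nars 0.63, Qars 0.52, Yars 0.37, Ears2 0.60, Hars2 0.063, Iars2 0.50, Mars2 0.70, Rars2 0.35, Sars2 0.020, Tars2 0.49, Wars2 0.60. With quantile normalization they were Eprs 0.10, Iars 0.094, Kars 0.11, Nars 0.28, Qars 0.020, Iars2 0.069, Pars2 −0.26; with TMM scaling Farsa 0.0055, Mars2 0.029; with edgeR Farsa 0.0096; with limma voom Farsa 0.010, Mars2 0.035. Without 1 liver Iars ran from −0.12 to 0.018 and Mars2 from −0.16 to 0.25. The sign changes with total-read scaling go with the shift of 0.72 over all genes, and for the other settings the cause was not tested.

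The deviations of same-numbered livers had small correlations (−0.0099, −0.011 and 0.049), and those of differently numbered livers ran from −0.063 to 0.088. With 3 livers per group these values cannot show whether the numbers pair the samples. With the replicate number as a block 3 cytosolic genes were higher and 7 lower (Yars lost its call), 0 mitochondrial genes were higher and 9 lower, and 10048 genes were called in all instead of 10262. No cytosolic to mitochondrial ratio changed direction with another pseudocount or without 1 liver. With Farsb in place of Farsa, chosen after seeing the data, the phenylalanine ratio moved from 0.76 to 0.23. Mars2, Pars2 and Qrsl1 rest on few reads, and the part of depth in their missing calls was not tested.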

Other observations

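Wars, the tryptophan synthetase of the cytosol, is known to be induced by interferon gamma. Its values of 398, 351 and 437 normalized counts (WT) and 462, 469 and 462 (Vps15LKO) missed the threshold (log2 fold change 0.24, SE 0.10, adjusted p = 0.074, total-read 0.96). Of 12 genes of the interferon gamma response 8 were called higher and 1 lower, beside 33.5% and 33.0% of all tested genes. Their median was 0.58 (with total-read scaling 11 higher, 1 lower and 1.31). Cxcl10, a chemokine for lymphocytes, rose most (log2 fold change 5.204, SE 0.15, adjusted p = 1.4e-07, total-read 5.93), and Iigp1, a GTPase of the defence against intracellular parasites, fell (log2 fold change −1.31, SE 0.21, adjusted p = 6.5e-04, total-read −0.58). Lymphocyte markers were higher in the same livers, and their part in these values was not tested.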
